A study of Rattus norvegicus with 72 samples.

Results

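Lactation changes the mammary gland relative to pregnancy, and this report describes how far that change differed when the rats were kept in hypergravity, that is, under more than the normal gravitational load. Values written with ± in brackets are the interaction in log2 units with its standard error. The measurement is a stage by gravity interaction, the lactation minus pregnancy difference in hypergravity less the same difference at standard gravity, on the log2 scale. All 31042 probe sets of the deposited table entered it, with no selection on their values. It rests on 19 of the 20 mammary arrays labelled with these conditions and of 72 arrays in the series: 5 rats each in pregnancy at standard gravity, lactation at standard gravity and pregnancy in hypergravity, and 4 rats in lactation in hypergravity. The fifth lactating array of the hypergravity group, M210H, was left out because its milk protein level was 2.97 where the other 4 had 12.93 to 13.01, with adipocyte markers at 10.21 against 7.04 to 7.67. It looks exchanged with A210H, labelled adipose tissue of the same rat, where the beta-casein Csn2 read 13.03. Fits with M210H kept are given for completeness. They appear to mix tissues within the group and so cannot test how firm a call is. Array codes give the tissue, the rat and the gravity (S standard, H hypergravity), and codes with 3-digit rat numbers are the lactating rats. Values listed by array run in the order M42S, M44S, M48S, M52S, M57S (pregnant) and M201S, M202S, M214S, M216S, M219S (lactating) at standard gravity, then M50H, M55H, M56H, M59H, M60H (pregnant) and M203H, M206H, M212H, M217H (lactating). The sample labels name no difference between the groups other than gravity and stage, and strain, age, g level and day of stage are not given in the sources used here. Liver and adipose arrays carry the codes of the same rats and served as comparison tissues.

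The mammary epithelium proliferates in pregnancy and becomes secretory around birth, when pumps, transporters and enzymes for calcium, lactose and lipid are raised under prolactin acting through STAT5. When milk is not removed the gland involutes, a process that runs through STAT3 and brings acute phase, lysosomal and innate defence genes with it. Stage effects on these programmes are the reference against which the hypergravity groups are set here.

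Several arrays carried markers of other tissues. Skeletal muscle markers (mean log2 level of 17 genes) were at 7.44 on lactating hypergravity array M212H and 7.90 on pregnant hypergravity array M50H, against group medians of 4.15 to 4.18. Hepatocyte markers were at 9.54 on M56H (pregnant, hypergravity) and 6.46 on M52S (pregnant, standard gravity), against medians of 3.49 to 3.66. Array M57S had 5.16 for hepatocyte markers, and lymphocyte markers, with group medians of 4.05 to 5.01, reached 6.85 on M60H and 5.88 on M219S. Results that rest on called genes are therefore also given without the first 4 of these arrays (3 lactating and 3 pregnant arrays then remain in hypergravity, 5 and 4 at standard gravity), and without all 7 (3, 2, 4 and 3). In whole tissue, fewer cells of a type cannot be told apart from less RNA per cell. Milk proteins were at 12.53 to 13.23 on all 19 arrays, luminal epithelium markers at 7.06 to 8.59, as the mammary label requires.

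The stage effect differed between the gravities at 1250 of 31042 probe sets (limma, Benjamini-Hochberg adjusted p under 0.05, hereafter called), which is 4.03% of those tested, with 676 interactions above 0 (2.18%) and 574 below (1.85%). Taking each gene at its brightest probe set, 801 of 14217 genes were called (5.63%), 449 upward (3.16%) and 352 downward (2.48%). Upward means that lactation relative to pregnancy was higher in hypergravity than at standard gravity. The stage effect itself was called at 5692 genes at standard gravity (40.0%) and at 4930 in hypergravity (34.7%). With M210H kept, 519 genes were called, 501 of them among the 801, and the upward share was 44.3% in place of 56.1%. Removal of the 4 arrays with muscle or hepatocyte markers left 646 called genes (506 shared), and removal of all 7 left 420 (314 shared).

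Sorted by where the stage effect was called, the class with most of the 801 genes was that of effects lost in hypergravity. A stage effect called at standard gravity alone was found at 384 genes (47.9%), 177 of them higher and 207 lower in lactation at standard gravity. At 128 genes (16%) it was called at both gravities with opposite sign, 66 turning from higher to lower in lactation and 62 from lower to higher. A stage effect called in hypergravity alone, named new here, was found at 207 genes (25.8%), 130 higher and 77 lower in lactation. Smaller groups were the 58 genes weakened and the 22 strengthened in the same direction, and 2 genes had a stage effect called at neither gravity. Most stage effects carried no called interaction: among the 3363 genes with a stage effect called at both gravities, 3235 had the same direction, and 80 of those had the interaction called. Of the 2329 genes with a stage effect called at standard gravity alone, 384 (16.5%) had a called interaction, and of the 1567 called in hypergravity alone, 207 (13.2%). At the edge of the threshold, Nomo1 (-0.77 log2 units) and Knstrn (-1.74) had adjusted p-values of 0.04979 and 0.04992 and are inside, and Lrfn4 (1.82) and Terf1 (-1.18), both at 0.05001, are outside; all 4 were picked for that place. The classes come from the measured values and are descriptions. Among named genes, fits that left out 1 of the 19 arrays gave another class in 14 fits for Pclaf and Atp2c2, in 7 for Bub1 and Igf1r, in 6 for S100a8, in 5 for Kdr and Postn and in 4 or fewer for the others. A gene's value is that of its brightest probe set, and at least 1 other probe set was not called for Atp2b2, Slc4a4, Ttk, Cpt1a, Slc1a1, Cdc45, B4galt1, Mmp9, Tacr1, Stat3, Slc27a3, Igf1r, Scnn1g, Kdr, Slc7a1, Aif1 and Clock. Where a group lies below the array medians of 4.44 to 4.56, the size and rank of an interaction are approximate. Lactating hypergravity means below them include those of Cenpu (3.97), Ccna2 (3.9), Ttk (3.34), E2f8 (3.11) and Chrm4 (3.08). So do Vtcn1 in lactation at standard gravity (3.16) and Mmp9 in every group but pregnancy in hypergravity.

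**Figure D1:**
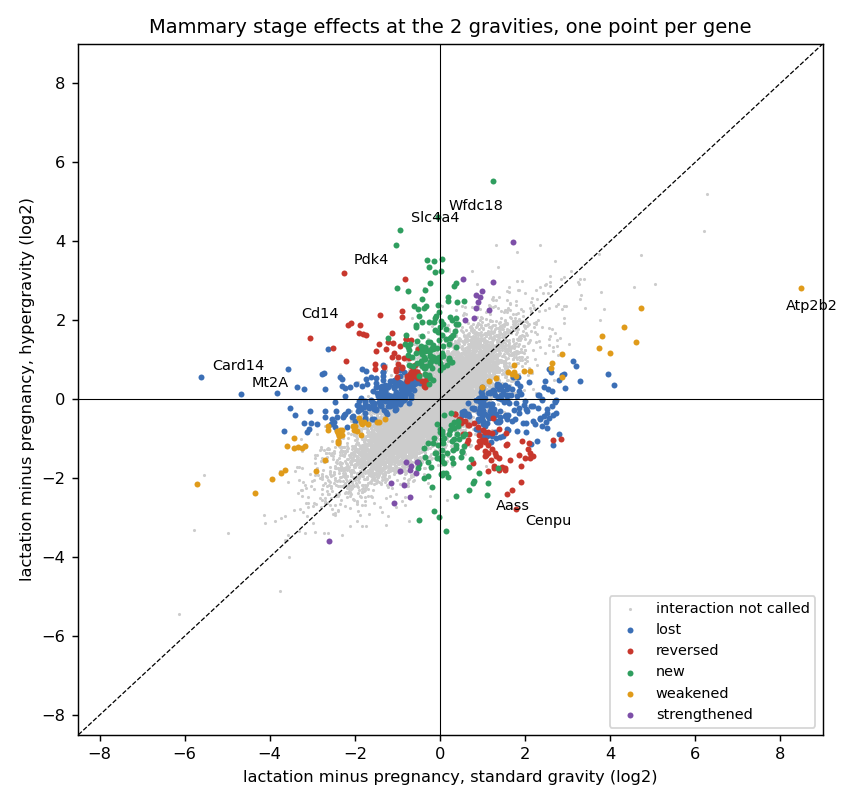
Lactation minus pregnancy in log2 units at standard gravity (x axis) against hypergravity (y axis), with one point per gene coloured by class; the dashed line marks equal effects. Lost genes lie along the x axis, new genes along the y axis and reversed genes in the upper left and lower right quadrants, while Atp2b2 at 8.48 and 2.81 stands alone at the right.

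The groups that parted were the lactating ones. A hypergravity effect was called at 1770 genes in lactation (12.4%) and at 1 gene in pregnancy (0.00703%), Mmp9. Both contrasts and the interaction use the same arrays, so their values are given side by side and no overlap is drawn from them. Over the reversed genes the median absolute hypergravity effect was 2.11 log2 units in lactation and 0.21 in pregnancy, over the lost genes 1.32 and 0.2, and over the new genes 1.4 and 0.2. Among the 801 genes, the lactating arrays of the 2 gravities did not overlap at 752 (93.9%) and the pregnant arrays at 16 (2%). Over all genes these shares were 18.8% and 0.661%. The 801 genes and their classes were chosen with these same arrays. Their medians and shares therefore follow in large part from that choice and are descriptions. Among the 801 genes the absolute hypergravity effect was larger in lactation than in pregnancy at 780 (97.4%), so not at all of them. Neither hypergravity effect was called at 36 (4.49%). Fbn1, for example, had -0.98 log2 units in pregnancy and 0.68 in lactation, neither called. Mmp9, a gelatinase of neutrophils and remodelling tissue, was the only gene with the effect called in pregnancy. Mmp9 had log2 levels of 2.92, 3.01, 2.9, 3.19 and 3.32 in pregnancy and 2.64, 2.9, 2.74, 2.8 and 3.62 in lactation at standard gravity, and of 4.66, 6.38, 6.9, 5.67 and 4.42 in pregnancy and 2.91, 2.47, 3.13 and 2.63 in lactation in hypergravity. Its interaction of -2.7 ± 0.52 log2 units (SE, adjusted p = 0.0057) came with a hypergravity effect of 2.54 log2 units in pregnancy (adjusted p = 0.045) and -0.16 in lactation (adjusted p = 0.92). The count of 1 in pregnancy moved between 0 and 7 when single arrays were left out, with 7 without M56H.

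**Figure D2:**
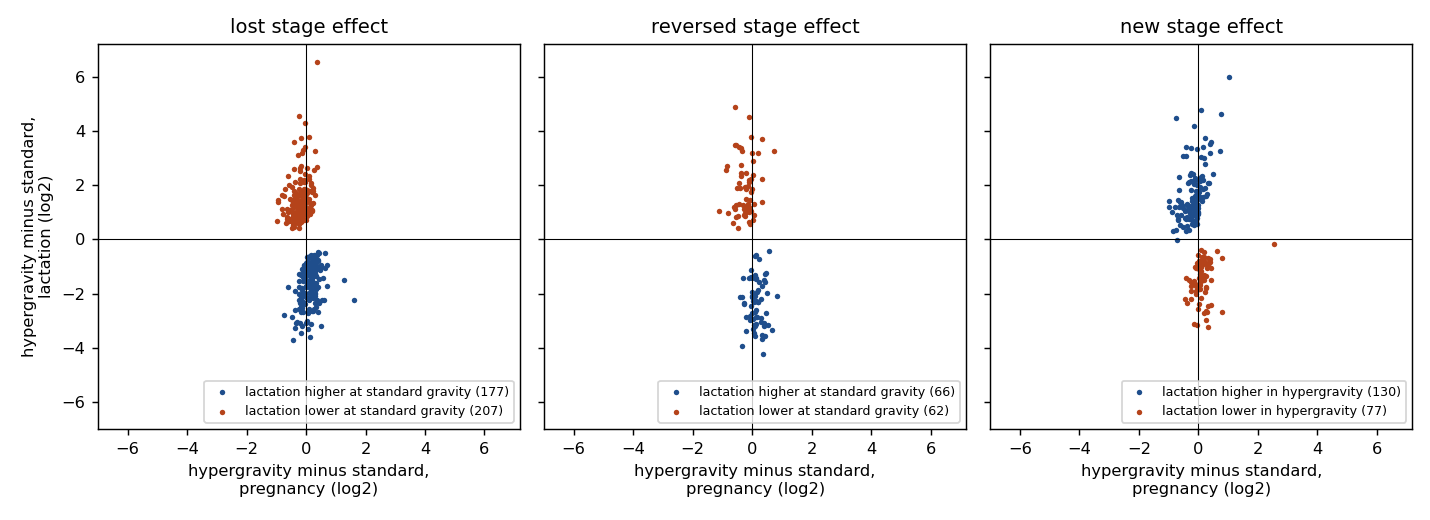
Hypergravity minus standard gravity in log2 units in pregnancy (x axis) and in lactation (y axis) for lost, reversed and new genes, one point per gene, coloured by the direction of the stage effect. Points spread along the y axis to 6.53 (Card14) and stay near 0 on the x axis, where Mmp9 at 2.54 is the farthest.

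Calcium transport into milk held the largest downward interaction of all genes. Atp2b2 (chr4:148450207-148763653 on GRCr8) encodes the plasma membrane calcium pump that carries calcium across the apical membrane of the secretory cell. Atp2b2 had log2 levels of 2.55, 2.5, 3.22, 2.9 and 3.28 in pregnancy and 11.66, 11.15, 11.25, 11.36 and 11.45 in lactation at standard gravity, and of 2.81, 3.24, 2.7, 3.04 and 2.93 in pregnancy and 3.3, 5.19, 7.87 and 6.64 in lactation in hypergravity. The 5 lactating arrays at standard gravity were all at 11.15 or more, the 4 in hypergravity were spread from 3.30 to 7.87, M203H read 3.30, next to the highest pregnant value of 3.28, and all 10 pregnant arrays lay below it. The stage effect was thus 8.48 log2 units at standard gravity (adjusted p = 1e-08) and 2.81 in hypergravity (adjusted p = 0.0014), an interaction of -5.67 ± 0.78 log2 units (SE, adjusted p = 0.00038), 95% interval -7.3 to -4.04. Pregnant levels lie below the array medians of 4.44 to 4.56, so folds from them are approximate. Atp2c2, a calcium pump of the secretory pathway, went the same way: its stage effect was 3.99 log2 units at standard gravity (adjusted p = 2.2e-06) and 1.18 in hypergravity (adjusted p = 0.05), the latter under the threshold before rounding, with an interaction of -2.81 ± 0.6 log2 units (SE, adjusted p = 0.011). Of 11 calcium genes measured, these 2 were called (18.2%, against 5.63% of all genes), and the list median was -0.05 against 0.01 over all genes.

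Among lactose and milk fat genes all calls were downward. B4galt1 (chr5:60731601-60778456) encodes the galactosyltransferase that makes lactose together with alpha-lactalbumin. B4galt1 had log2 levels of 8.3, 6.96, 7.35, 7.57 and 7.15 in pregnancy and 9.96, 9.78, 10.25, 10.15 and 9.84 in lactation at standard gravity, and of 8.28, 7.99, 8.53, 7.73 and 7.56 in pregnancy and 7.52, 7.85, 8.27 and 7.46 in lactation in hypergravity. The lactating arrays at standard gravity were the highest, and the lactating arrays in hypergravity lay in the range of pregnancy. The interaction was -2.77 ± 0.34 log2 units (SE, adjusted p = 0.00016), and it was the 1 called gene of 10 for glucose uptake and lactose (10%, against 5.63% of all genes). Lalba, the alpha-lactalbumin partner, had stage effects of 1.52 log2 units at standard gravity (adjusted p = 0.00041) and 1.34 in hypergravity (adjusted p = 0.0026), with an interaction of -0.18 ± 0.4 log2 units (SE, adjusted p = 0.91). Its lactating arrays read 13.24 to 13.44, near the top of the array's range, so these values may be compressed and do not show that the effects were equal. Among 16 milk fat genes 3 were called (18.8%), all downward: the fatty acid receptor Cd36 (-2.42 ± 0.4, adjusted p = 0.0018) lost its rise, the acyltransferase Gpat4 (-1.73 ± 0.3, adjusted p = 0.0022) was reversed from 0.63 to -1.1, and the fatty acid transporter Slc27a3 (-2.04 ± 0.51, adjusted p = 0.029) had a new fall. Without the 7 marked arrays 1 of the 16 was called. Cidea, a lipid droplet protein of the lactating gland, rose with lactation at both gravities (6.21 against 4.27 log2 units) and its interaction of -1.94 ± 0.59 log2 units (SE, adjusted p = 0.079) was not called. Slc27a3 was no longer called with M210H kept. Slc27a3 was not called without the 4 arrays with muscle or hepatocyte markers. Cd36 was not called without all 7 marked arrays. Slc27a3 was not called without any 1 of 10 arrays.

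None of the 5 milk protein genes was called in limma, and none reached an unadjusted p of 0.05. Csn2 had log2 levels of 12.78, 12.97, 12.84, 12.72 and 12.94 in pregnancy and 13.03, 12.75, 12.94, 12.94 and 13 in lactation at standard gravity, and of 12.67, 12.72, 12.78, 12.9 and 13.05 in pregnancy and 12.97, 12.79, 12.88 and 12.78 in lactation in hypergravity. All 19 values of this beta-casein probe set fall within a narrow band near the top of the array's range, where a change in RNA could be compressed. Whey acidic protein, Wap, had an interaction of -0.27 ± 0.14 log2 units (SE, adjusted p = 0.37) and casein Csn1s1 one of -0.12 ± 0.14 log2 units (SE, adjusted p = 0.79). Across the 5 genes the stage effect was called at 2 at standard gravity and 1 in hypergravity, all upward, and 1 was lower in hypergravity in lactation.

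**Figure D3:**
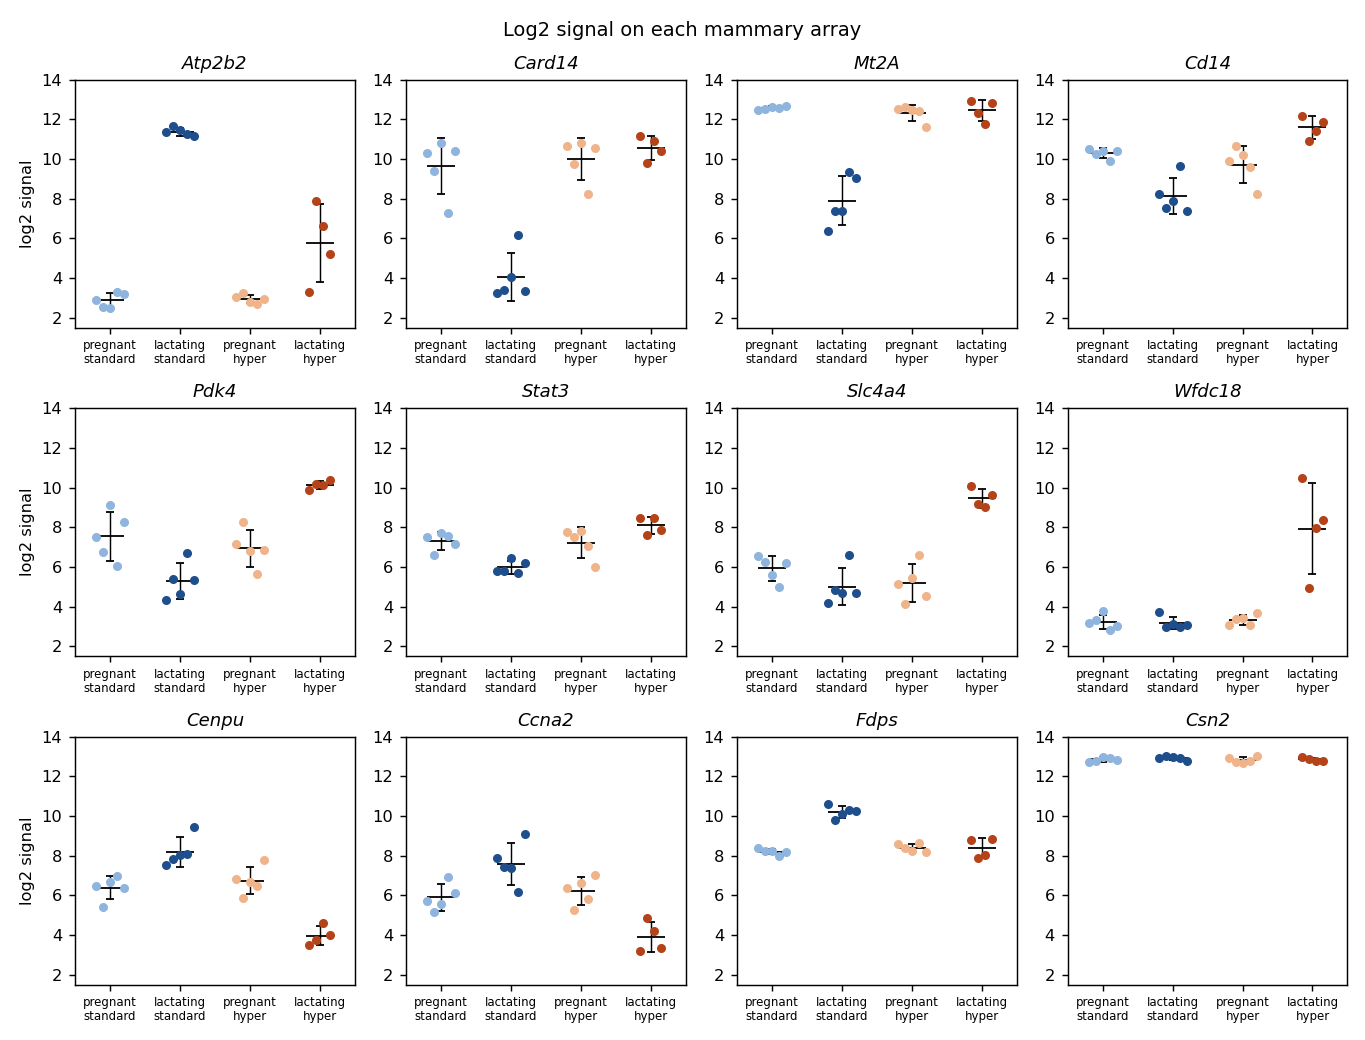
Log2 signal (y axis) on each of the 19 mammary arrays for 12 genes, one panel each, in 4 groups of stage and gravity; points are arrays, horizontal bars are means and whiskers are SD. The lactating hypergravity points stand apart from the lactating points at standard gravity in every panel but Csn2.

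Of 3 metallothioneins measured, small proteins that bind zinc and copper, Mt2A and Mt1 lost a fall with lactation and Mt3 was not called. Mt2A and Mt1 lie next to each other on chromosome 19, and metal response elements, which the zinc sensor MTF1 binds, are a known feature of their promoters. The 250 bases before each start are shown because both genes moved together; they are RefSeq sequences of GRCr8, read 5′ to 3′ toward the gene, with matches to TGCACNC or TGCGCNC on either strand in capitals.
Mt2A (chr19:10838709-10838958, - strand): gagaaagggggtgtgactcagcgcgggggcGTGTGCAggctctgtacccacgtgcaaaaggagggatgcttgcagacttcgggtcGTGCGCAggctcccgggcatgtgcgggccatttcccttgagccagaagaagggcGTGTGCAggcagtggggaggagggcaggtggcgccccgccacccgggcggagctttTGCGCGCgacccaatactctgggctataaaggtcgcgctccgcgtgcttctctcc
Mt1 (chr19:10832976-10833225, - strand): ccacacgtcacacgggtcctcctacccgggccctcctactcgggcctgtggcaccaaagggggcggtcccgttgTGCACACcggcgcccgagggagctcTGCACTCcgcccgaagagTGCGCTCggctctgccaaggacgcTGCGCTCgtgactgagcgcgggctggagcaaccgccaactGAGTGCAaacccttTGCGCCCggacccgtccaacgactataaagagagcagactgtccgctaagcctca
Both windows hold such matches, as do 29.8% of the 11700 measured genes with a window and 21.2% of all 27457 windows; a match is a description of letters. Mt2A had log2 levels of 12.53, 12.62, 12.67, 12.47 and 12.6 in pregnancy and 7.37, 9.06, 9.35, 6.39 and 7.37 in lactation at standard gravity, and of 12.45, 12.61, 12.42, 12.52 and 11.62 in pregnancy and 12.93, 12.82, 12.34 and 11.78 in lactation in hypergravity. The lactating arrays at standard gravity were the low ones, none above 9.35, and the lactating hypergravity arrays read as the pregnant ones did. The stage effect of Mt2A was -4.67 log2 units at standard gravity (adjusted p = 6e-07) and 0.14 in hypergravity (adjusted p = 0.85), an interaction of 4.81 ± 0.62 log2 units (SE, adjusted p = 2e-04). Mt1 had mean log2 levels of 12.77 ± 0.11 and 9.24 ± 1.2 at standard gravity and 12.65 ± 0.22 and 12.42 ± 0.3 in hypergravity (mean ± SD, pregnancy then lactation, n = 5, 5, 5 and 4), an interaction of 3.3 ± 0.55 log2 units (SE, adjusted p = 0.0019). The other 9 genes of the list, zinc carriers and Mt3, had no call, and the list median was -0.25. The share called was 2 of 11 (18.2%), against 5.63% of all genes. In liver the same contrast gave 1.98 (adjusted p = 0.36) and 1.62 (adjusted p = 0.29), and the difference between the tissues was not called for either (adjusted p = 0.16 and 0.49). Mt1 was not called without all 7 marked arrays.

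Mitosis held 11 reversed genes, more than any other list. Of 29 mitosis genes measured, 22 (75.9%) had a downward interaction called and 0 an upward one, against 5.63% of all genes called in either direction; their median interaction was -2.70 log2 units against 0.01 over all genes. All 29 were below 0, from -4.56 to -1.08. Lactation raised 21 of them at standard gravity and lowered 15 in hypergravity, so that 11 were reversed, 9 lost a rise and 2 had a new fall. The median stage effect went from 1.55 to -1.16 log2 units. The count of 22 fell to 13 without the 4 arrays with muscle or hepatocyte markers and to 7 without all 7, with medians of -2.73 and -2.94; leaving out single arrays gave 18 to 24.

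Cenpu (chr16:52448446-52471662), a subunit of the inner kinetochore, had the largest downward interaction of the list. Cenpu had log2 levels of 5.43, 6.69, 6.37, 6.48 and 6.97 in pregnancy and 7.82, 9.46, 8.06, 7.51 and 8.03 in lactation at standard gravity, and of 6.68, 5.89, 6.49, 6.84 and 7.77 in pregnancy and 3.48, 4.01, 3.77 and 4.62 in lactation in hypergravity. The 4 lactating hypergravity arrays were the lowest 4 of all 19, and M202S was the highest. Values of 4.01 or less lie below the array medians of 4.44 to 4.56, so the size of this difference is approximate. The stage effect was 1.79 log2 units at standard gravity (adjusted p = 0.0013) and -2.77 in hypergravity (adjusted p = 0.00012), an interaction of -4.56 ± 0.55 log2 units (SE, adjusted p = 0.00013). Ccna2, the cyclin of S and G2 phase, repeated the pattern with more spread. Ccna2 had log2 levels of 5.17, 5.54, 6.11, 5.73 and 6.92 in pregnancy and 7.44, 9.09, 6.16, 7.88 and 7.36 in lactation at standard gravity, and of 6.61, 5.26, 5.8, 6.37 and 7.02 in pregnancy and 3.2, 3.37, 4.85 and 4.18 in lactation in hypergravity. Its lactating groups did not overlap, and its interaction was -4.01 ± 0.69 log2 units (SE, adjusted p = 0.0023). The spindle checkpoint kinase Ttk (-3.61 ± 0.51, adjusted p = 5e-04) and the kinase Melk (-3.51 ± 0.49, adjusted p = 0.00044) were reversed too. Top2a, which untangles sister chromatids, rose with lactation at standard gravity by 2.5 and was at -0.58 in hypergravity, an interaction of -3.08 ± 0.6 log2 units (SE, adjusted p = 0.0058). The checkpoint kinase Bub1 was classed as new because its rise at standard gravity of 1.36 missed the threshold (adjusted p = 0.054). Bub1 was not called without the 4 arrays with muscle or hepatocyte markers. Bub1 was not called without M203H or M206H.

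Genes of G2 and M phase are known to carry a CCAAT box, bound by NF-Y, and a cell cycle homology region (CHR, TTTGAA), bound by the DREAM complex. Spc25, a kinetochore subunit, and Cdk1, the mitotic kinase, are shown because they had the largest interactions among called mitosis genes whose window holds both motifs, taken from RefSeq GRCr8 with capitals for TTTGAA and CCAAT on either strand.
Spc25 (chr3:74396719-74396968, - strand): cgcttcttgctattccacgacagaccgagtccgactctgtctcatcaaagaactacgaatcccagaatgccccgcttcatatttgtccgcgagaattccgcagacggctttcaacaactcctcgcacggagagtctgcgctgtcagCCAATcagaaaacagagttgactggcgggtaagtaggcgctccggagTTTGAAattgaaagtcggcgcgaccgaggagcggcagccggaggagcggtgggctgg
Cdk1 (chr20:19265043-19265292, + strand): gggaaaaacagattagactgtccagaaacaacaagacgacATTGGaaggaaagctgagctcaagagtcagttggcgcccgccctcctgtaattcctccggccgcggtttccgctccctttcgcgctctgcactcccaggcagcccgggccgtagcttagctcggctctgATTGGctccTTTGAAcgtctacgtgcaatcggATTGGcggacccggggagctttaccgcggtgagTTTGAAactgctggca
Spc25 had mean log2 levels of 4.21 and 6.28 at standard gravity and 4.24 and 2.98 in hypergravity (pregnancy then lactation) and Cdk1 of 6.93 and 8.46 at standard gravity and 7.21 and 5.42 in hypergravity, with interactions of -3.34 ± 0.56 (SE, adjusted p = 0.0019) and -3.33 ± 0.58 log2 units (SE, adjusted p = 0.0025). Of the 22 called mitosis genes 19 had a window, of which 8 (42.1%) held TTTGAA and 13 (68.4%) CCAAT, and these 8 held both. Among measured genes the shares were 10.9% and 35.1%, and among all windows 16% and 34.3%. Binding was not measured here.

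DNA replication genes had interactions in the same direction. Of 26 measured, 13 (50%) had a downward interaction called and 0 an upward one, against 5.63% of all genes called in either direction. The list median was -1.63. Of those called, 7 lost a rise, 4 were reversed and 2 had a new fall. All 26 were below 0, from -3.17 to -0.59. Mcm5, a subunit of the replicative helicase, had mean log2 levels of 5.91 ± 0.37 and 7.3 ± 0.98 at standard gravity and 6.37 ± 0.52 and 4.58 ± 0.37 in hypergravity (pregnancy then lactation) and an interaction of -3.17 ± 0.54 log2 units (SE, adjusted p = 0.0021). The licensing factor Cdt1 was reversed with -3.01 ± 0.47 log2 units (SE, adjusted p = 0.0012), the helicase subunit Mcm6 lost its rise with -2.85 ± 0.45 log2 units (SE, adjusted p = 0.0013), and the helicase activator Cdc45 had a new fall with -2.81 ± 0.6 log2 units (SE, adjusted p = 0.011). On array M202S, Mcm5 read 9.05 and Cdt1 9.21, above all other lactating arrays at standard gravity; the counts without it and every other single array were 12 to 15. Of 12 called replication genes with a window, 4 (33.3%) held an E2F site (TTTCCCGC or TTTGGCGC, either strand), against 2.15% of measured genes, and 0 held TTTGAA. Mcm6 and Cdc45 were not called without all 7 marked arrays. The list count without all 7 marked arrays was 4.

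Cell cycle genes outside the lists were also called, chosen by the rule for each class: E2f8 and Pclaf were reversed, Depdc1 lost a rise and Ska1 had a new fall. E2f8, an E2F repressor active in S phase, had an interaction of -4 ± 0.52 log2 units (SE, adjusted p = 0.00022) and Pclaf, which binds the sliding clamp PCNA, one of -4 ± 0.87 log2 units (SE, adjusted p = 0.012). Depdc1 and Ska1, both needed at the spindle, had -3.35 ± 0.63 log2 units (SE, adjusted p = 0.0045) and -3.26 ± 0.68 log2 units (SE, adjusted p = 0.0094). Pclaf and Ska1 were not called without all 7 marked arrays. The class of Pclaf rests on a stage effect at standard gravity with adjusted p = 0.047, and it was another in 14 of the 19 fits that left out 1 array.

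Cholesterol synthesis had the interaction called downward at 5 of 19 genes measured (26.3%, against 5.63% of all genes in either direction) and upward at 0, with a median of -1.04 log2 units. The count was 3 without the 7 marked arrays. Separately, a rise with lactation was called at 12 of the 19 at standard gravity and 5 in hypergravity, where stage calls over all genes went from 40.0% to 34.7%; that difference in counts was not tested. Fdps (chr2:176795192-176804816) encodes farnesyl diphosphate synthase. Fdps had log2 levels of 8.23, 8.22, 8.18, 8.37 and 8 in pregnancy and 9.81, 10.23, 10.28, 10.59 and 10.08 in lactation at standard gravity, and of 8.23, 8.4, 8.63, 8.59 and 8.2 in pregnancy and 8.77, 8.83, 7.87 and 8.02 in lactation in hypergravity. Lactating arrays at standard gravity began at 9.81 and the other 14 ended at 8.83. Its stage effect was 2 log2 units at standard gravity (adjusted p = 7.1e-07) and -0.04 in hypergravity (adjusted p = 0.91), an interaction of -2.03 ± 0.27 log2 units (SE, adjusted p = 0.00025). Mvd, the mevalonate decarboxylase, lost a rise of 1.77 (-2.26 ± 0.26, adjusted p = 1e-04), the isomerase Idi1 kept 1.3 of 3.73 (-2.44 ± 0.47, adjusted p = 0.0055), and the sterol reductase Hsd17b7 was reversed (-2.51 ± 0.42, adjusted p = 0.0019). Hsd17b7 was not called without all 7 marked arrays. Sterol genes respond to SREBP together with NF-Y, and the window before Fdps is shown (RefSeq GRCr8) for its CCAAT boxes, in capitals on either strand.
Fdps (chr2:176804817-176805066, - strand): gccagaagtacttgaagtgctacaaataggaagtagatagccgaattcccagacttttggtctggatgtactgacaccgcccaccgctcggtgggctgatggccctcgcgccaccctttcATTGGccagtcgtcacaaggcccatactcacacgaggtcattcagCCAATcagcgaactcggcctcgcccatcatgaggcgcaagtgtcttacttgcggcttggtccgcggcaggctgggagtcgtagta
CCAAT was in 4 of the 5 called sterol genes' windows (80.0%) against 35.1% of measured genes, and the sterol element TCACNCCAC in 0 of 5 against 0.974%; absence of these letters says nothing of the factor.

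Fatty acid synthesis followed with 4 of 19 genes called downward (21.1%, against 5.63% of all genes in either direction) and 0 upward. The list median was -0.63, and 2 were called without the 7 marked arrays. Acaca, the carboxylase that commits acetyl-CoA to fatty acids, had mean log2 levels of 10.64 ± 0.2 and 11.84 ± 0.29 at standard gravity and 10.55 ± 0.47 and 9.03 ± 1.08 in hypergravity (pregnancy then lactation), a reversed stage effect and an interaction of -2.73 ± 0.49 log2 units (SE, adjusted p = 0.0031). The desaturases Fads2 (-2.88 ± 0.52, adjusted p = 0.0034) and Fads1 (-2.1 ± 0.43, adjusted p = 0.0082) and the acetyl-CoA synthetase Acss2 (-1.91 ± 0.51, adjusted p = 0.04) were the others. Scd, the stearoyl-CoA desaturase, had the largest hypergravity effect of the named genes in pregnancy, -2.62 log2 units, with a wide spread (adjusted p = 0.72), and its interaction of -2.37 ± 1.19 log2 units (SE, adjusted p = 0.37) was not called. Acss2 was no longer called with M210H kept. Fads1 and Acss2 were not called without all 7 marked arrays. Acss2 was not called without any 1 of 15 arrays.

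Fatty acid oxidation went the opposite way. Of 22 genes, 7 (31.8%) had an upward interaction called and 0 a downward one, against 5.63% of all genes called in either direction. The list median was 0.78. Of the 7 called, 5 had lost a fall with lactation, 1 was reversed and 1 weakened. Pdk4 (chr4:34558327-34568329), the kinase that shuts pyruvate out of oxidation in fasting, had the highest upward interaction of the list. Pdk4 had log2 levels of 6.75, 9.14, 8.27, 7.5 and 6.04 in pregnancy and 5.41, 5.35, 6.72, 4.32 and 4.63 in lactation at standard gravity, and of 6.82, 8.26, 5.65, 7.13 and 6.86 in pregnancy and 9.9, 10.4, 10.16 and 10.13 in lactation in hypergravity. The 4 lactating hypergravity arrays exceeded all other 15 and lay between 9.90 and 10.40. Its stage effect was -2.25 log2 units at standard gravity (adjusted p = 0.0035) and 3.2 in hypergravity (adjusted p = 0.00062), an interaction of 5.46 ± 0.79 log2 units (SE, adjusted p = 6e-04). Cpt1a, which admits fatty acids to mitochondria, lost a fall. Cpt1a had log2 levels of 9.31, 10.18, 10.82, 10.31 and 8.76 in pregnancy and 7.11, 7.33, 7.14, 7.13 and 6.89 in lactation at standard gravity, and of 10.05, 9.69, 8.8, 9.9 and 9.57 in pregnancy and 10.46, 10.08, 10.25 and 10.16 in lactation in hypergravity. The lactating groups were apart, and the interaction of Cpt1a was 3.39 ± 0.44 log2 units (SE, adjusted p = 0.00022). Angptl4, a lipase inhibitor induced in fasting, had 3.67 ± 0.62 log2 units (SE, adjusted p = 0.002), and the thiolase Acaa2 had 2.99 ± 0.45 log2 units (SE, adjusted p = 0.00077). In liver none of the 22 was called, against 0.190% of all genes, and the median was 0.22. The mammary and liver values differed at 3 of the 22, against 2.79% of all genes. These were Pdk4 (adjusted p = 0.016), Cpt1a (adjusted p = 0.00014) and Acaa2 (adjusted p = 0.0058). With the rat as a block Angptl4 differed too (adjusted p = 0.015, against 0.14 without it).

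**Figure D4:**
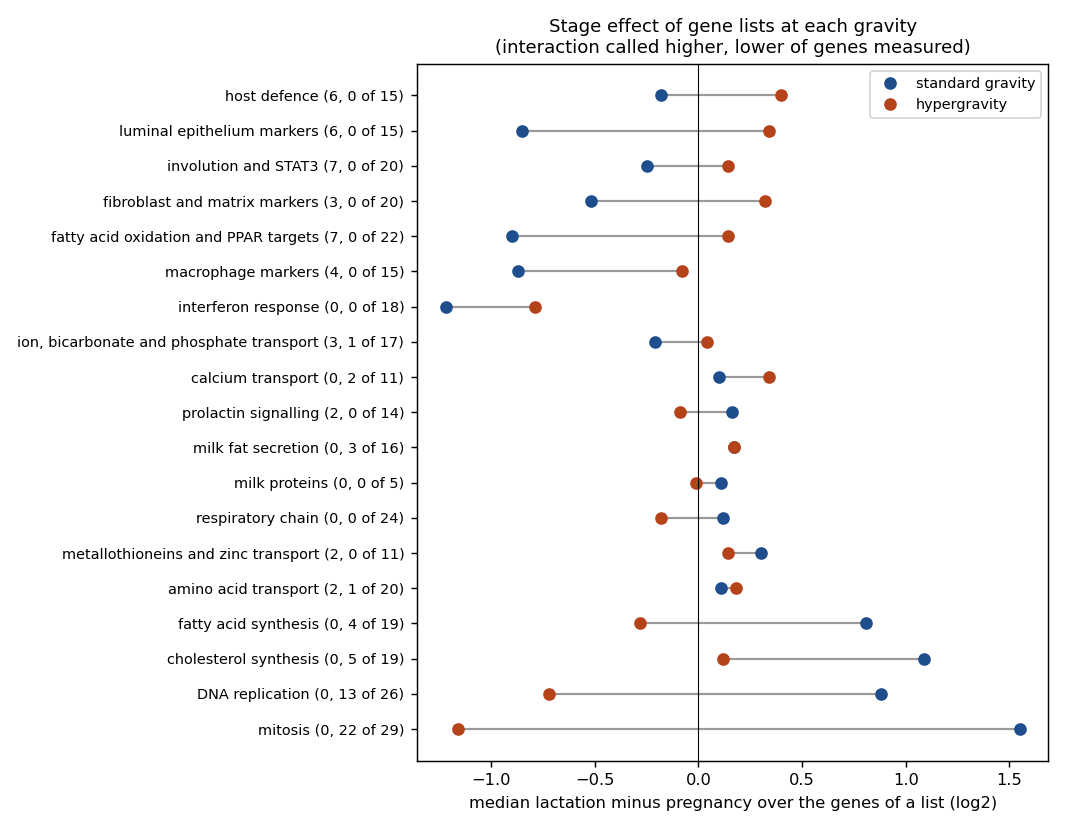
Median lactation minus pregnancy in log2 units (x axis) over the genes of each list (y axis) at standard gravity and in hypergravity, with numbers of genes whose interaction was called upward, downward and measured. Mitosis moved from 1.55 to -1.16 and luminal markers from -0.85 to 0.34, while milk proteins stayed near 0.

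Involution genes had 7 of 20 members called upward (35%, against 5.63% of all genes in either direction) and 0 downward, with a median of 0.88. Stat3 (chr10:86311528-86363513), the transcription factor that drives involution, had lost its fall. Stat3 had log2 levels of 6.62, 7.72, 7.15, 7.49 and 7.56 in pregnancy and 5.78, 6.21, 5.67, 5.81 and 6.43 in lactation at standard gravity, and of 7.82, 7.51, 7.06, 7.76 and 5.97 in pregnancy and 8.45, 7.84, 7.6 and 8.47 in lactation in hypergravity. The lactating groups did not overlap, the lactating hypergravity arrays lay within or above the range of pregnancy, and the stage effect was -1.33 log2 units at standard gravity (adjusted p = 0.0027) and 0.87 in hypergravity (adjusted p = 0.054). Its interaction was 2.2 ± 0.45 log2 units (SE, adjusted p = 0.0084). Lgals3, a galectin of macrophages and involuting epithelium, was reversed (-1.73 against 1.63 log2 units, with an interaction of 3.36 ± 0.41, adjusted p = 0.00015). The secreted chaperone Clu was weakened (-3.44 against -0.97, with an interaction of 2.48 ± 0.41, adjusted p = 0.0018), and the cytokine Tgfb3, which rises on milk stasis, had a new rise of 2.48 (2.29 ± 0.56, adjusted p = 0.026). Stat3, Clu and Tgfb3 were no longer called with M210H kept. Tgfb3 was not called without the 4 arrays with muscle or hepatocyte markers. Clu was not called without all 7 marked arrays. Tgfb3 was not called without M44S, M203H, M217H or M206H. The list count was 4 with M210H kept and 3 without the 7 arrays.

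Host defence genes secreted by or acting on the gland gave 6 of 15 called upward (40%), 0 downward, and a median of 1.43, against 5.63% of all genes called. Wfdc18, a whey acidic protein family member of the mammary gland, was low in 3 groups. Wfdc18 had log2 levels of 3.33, 3.78, 3.01, 3.18 and 2.83 in pregnancy and 2.96, 3.09, 2.96, 3.72 and 3.12 in lactation at standard gravity, and of 3.42, 3.35, 3.08, 3.07 and 3.67 in pregnancy and 10.48, 8.37, 4.92 and 7.96 in lactation in hypergravity. The 4 lactating hypergravity values ran from 4.92 to 10.48, all above the other 15 arrays, for an interaction of 4.67 ± 0.9 log2 units (SE, adjusted p = 0.0054). The other 15 values lie below the array medians of 4.44 to 4.56, so the size of this difference is approximate. S100a8, a calcium-binding alarmin of neutrophils and stressed epithelium, rose likewise. S100a8 had log2 levels of 5.34, 5.32, 4.02, 4.96 and 3.45 in pregnancy and 5.38, 6.08, 6.65, 5.5 and 5.7 in lactation at standard gravity, and of 4.87, 4.19, 5.22, 4.56 and 3.6 in pregnancy and 11.37, 10.63, 9.58 and 8.55 in lactation in hypergravity. Its interaction was 4.3 ± 0.7 log2 units (SE, adjusted p = 0.0015), and that of its partner S100a9 was 2.68 ± 0.68 log2 units (SE, adjusted p = 0.03). Cd14, the lipopolysaccharide co-receptor, was reversed. Cd14 had log2 levels of 10.24, 10.4, 10.4, 10.53 and 9.9 in pregnancy and 7.54, 7.38, 9.63, 8.23 and 7.89 in lactation at standard gravity, and of 10.23, 10.68, 9.59, 9.9 and 8.22 in pregnancy and 12.18, 11.88, 10.89 and 11.44 in lactation in hypergravity. The lactating groups were fully apart and the pregnant groups overlapped, and the interaction was 4.03 ± 0.62 log2 units (SE, adjusted p = 0.00094). Lbp, which hands lipopolysaccharide to Cd14, was reversed with 3.58 ± 0.41 log2 units (SE, adjusted p = 1e-04). Lbp was no longer called with M210H kept. S100a9 was not called without the 4 arrays with muscle or hepatocyte markers. S100a9 was not called without any 1 of 8 arrays. The mean over 7 neutrophil markers was 4.22 to 5.09 in lactation in hypergravity and 3.27 to 4.1 in the other 3 groups. That list itself holds S100a8 and S100a9, whose hypergravity effects in lactation were 4.17 and 2.38 log2 units. Its median interaction was 0.08, with 4 of the 7 above 0, and Mmp9 was called downward. The part of neutrophils in the result was not tested. The host defence median was 0.74 with M210H kept, where 4 genes were called, and 4 were called upward and 1 downward without the 4 marked arrays or all 7.

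Luminal epithelium markers, used to check the tissue, also differed. Of 15, 6 (40%) were called upward and 0 downward, against 5.63% of all genes called in either direction. The list median was 1.02, and 9 of the 15 fell with lactation at standard gravity and 3 in hypergravity. Their mean was 7.06 to 7.23 in lactation at standard gravity and 7.86 to 8.59 in lactation in hypergravity, with 7.48 to 8.2 over the pregnant arrays. The keratin Krt8 lost its fall. Krt8 had log2 levels of 9.99, 10.63, 10.1, 10.07 and 10.15 in pregnancy and 8.12, 8.6, 8.58, 8.58 and 8.59 in lactation at standard gravity, and of 10.19, 10.26, 9.69, 10.12 and 9.91 in pregnancy and 10.36, 10.06, 9.01 and 10.07 in lactation in hypergravity. The lactating groups did not overlap, and the interaction was 1.54 ± 0.3 log2 units (SE, adjusted p = 0.006). The keratin Krt7 had 2.77 ± 0.74 log2 units (SE, adjusted p = 0.041), the claudin Cldn4 was reversed (2.53 ± 0.49, adjusted p = 0.0055) and the receptor Kit of luminal progenitors had a new rise (2.2 ± 0.48, adjusted p = 0.012). Krt8, Cldn4 and Kit were no longer called with M210H kept. Krt7 was not called without any 1 of 13 arrays. The list count was 1 with M210H kept, an array on which the luminal marker mean was 5.19.

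Markers of macrophages, which clear the involuting gland, gave 4 of 15 upward calls (26.7%, against 5.63% of all genes), 0 downward, and a median of 0.69. Besides Cd14 these were Aif1 (1.11 ± 0.26, adjusted p = 0.021), Tyrobp (1.05 ± 0.25, adjusted p = 0.024) and Mrc1 (0.99 ± 0.23, adjusted p = 0.019). Their mean level was 7.19 to 7.60 in lactation at standard gravity against 7.73 to 8.42 in hypergravity. Tyrobp was no longer called with M210H kept. Aif1, Tyrobp and Mrc1 were not called without the 4 arrays with muscle or hepatocyte markers. Aif1 was not called without M217H or M206H. Tyrobp was not called without M44S or M217H. Fibroblast and matrix genes gave 3 of 20 upward (15%, against 5.63% of all genes) with a median of 0.80. They were the inhibitor of metalloproteinases Timp1 (2.23 ± 0.4, adjusted p = 0.0029), fibrillin Fbn1 (1.66 ± 0.36, adjusted p = 0.013) and periostin Postn (1.22 ± 0.33, adjusted p = 0.045). Postn was not called without the 4 arrays with muscle or hepatocyte markers. Fbn1 was not called without all 7 marked arrays. Postn was not called without any 1 of 14 arrays. Among endothelial markers 1 of 12 was called, the VEGF receptor Kdr, with -1.34 ± 0.31 log2 units (SE, adjusted p = 0.016), a share of 8.33% against 5.63% of all genes. Kdr was not called without all 7 marked arrays. The macrophage count was 1 without the 4 marked arrays and also without all 7, and the fibroblast count 2 without the 7. Whether such cells were more numerous was not tested.

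Ion and amino acid carriers contributed single large effects. Slc4a4 (chr14:19125394-19577379), the sodium bicarbonate cotransporter, had the largest interaction of the new class. Slc4a4 had log2 levels of 6.24, 5.61, 6.19, 6.55 and 5.01 in pregnancy and 4.81, 4.67, 6.6, 4.19 and 4.7 in lactation at standard gravity, and of 5.45, 4.11, 6.59, 5.16 and 4.53 in pregnancy and 10.07, 9.64, 9.15 and 9.02 in lactation in hypergravity. All 4 lactating hypergravity arrays were at 9.02 or more and the other 15 at 6.6 or less. Its stage effect was -0.93 log2 units at standard gravity (adjusted p = 0.14) and 4.3 in hypergravity (adjusted p = 1.4e-05), an interaction of 5.23 ± 0.67 log2 units (SE, adjusted p = 2e-04), 95% interval 3.82 to 6.64. The epithelial sodium channel subunits Scnn1b (1.81 ± 0.46, adjusted p = 0.031) and Scnn1g (1.65 ± 0.34, adjusted p = 0.0093) lost a fall, and the aquaglyceroporin Aqp3 lost a rise (-2.77 ± 0.64, adjusted p = 0.018). These were the 4 called of 17 (23.5%, against 5.63% of all genes), and the list median was 0.23. With M210H kept 1 was called upward and 1 downward. Among 20 amino acid carriers, the glutamate carrier Slc1a1 (3.23 ± 0.67, adjusted p = 0.0088) and the heavy chain Slc3a2 (1.36 ± 0.35, adjusted p = 0.033) had new rises and the cationic carrier Slc7a1 lost its rise (-1.18 ± 0.26, adjusted p = 0.013). These 3 were 15% of the list, whose median interaction was -0.44, with 6 of the 20 genes above 0 and 14 below. Scnn1b, Scnn1g, Slc1a1 and Slc3a2 were no longer called with M210H kept. Scnn1b, Scnn1g and Slc3a2 were not called without all 7 marked arrays. Scnn1b was not called without any 1 of 9 arrays. Slc3a2 was not called without any 1 of 10 arrays.

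The prolactin signalling list, which also holds the insulin-like growth factor receptor Igf1r, had 2 of 14 genes called (14.3%, against 5.63% of all genes). Both were upward: Igf1r (1.88 ± 0.44, adjusted p = 0.018), not itself a prolactin receptor, and the kinase Jak2 (1.38 ± 0.23, adjusted p = 0.0019), with a list median of -0.06. With array weights, or with the mean of each gene's probe sets, 2 prolactin signalling genes were also called downward, and with M210H kept or without the 7 arrays 1 was called upward. The prolactin receptor Prlr rose with lactation at standard gravity (1.78, adjusted p = 0.014) and its interaction of -1.38 ± 0.77 log2 units (SE, adjusted p = 0.45) was not called; nor were those of the regulators Elf5 (-0.67 ± 0.37, adjusted p = 0.43) and Stat5a (0.33 ± 0.89, adjusted p = 0.93) called. Of 17 clock genes 2 were called (11.8%): the repressor Bhlhe41 had a new rise of 2.82 (3.82 ± 0.59, adjusted p = 0.0011) and Clock lost a rise (-0.78 ± 0.2, adjusted p = 0.031). Bmal1, the partner of Clock, had -0.99 ± 0.49 log2 units (SE, adjusted p = 0.36). The stress sensor Herpud1 was the 1 of 19 unfolded protein response genes called, 5.26% and near the share of all genes (0.88 ± 0.23, adjusted p = 0.033). Igf1r and Bhlhe41 were no longer called with M210H kept. Clock and Herpud1 were not called without the 4 arrays with muscle or hepatocyte markers. Igf1r was not called without all 7 marked arrays. Clock was not called without any 1 of 6 arrays. Herpud1 was not called without any 1 of 10 arrays.

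No member was called in limma in 13 lists. Over all genes, 2610 of 14217 had an unadjusted interaction p under 0.05 in limma, and the list counts below are to be read beside that. Members reaching an unadjusted p of 0.05 numbered 3 of 12 for heat shock, with Hspb8 at 1.26 ± 0.42 log2 units (SE, adjusted p = 0.12), 2 of 24 for the respiratory chain, with Ndufs1 at -0.55 ± 0.23 log2 units (SE, adjusted p = 0.25), and 2 of 18 for interferon response, with Ifi27 at 0.61 ± 0.29 log2 units (SE, adjusted p = 0.34). The other interferon gene under 0.05, Ifih1, went the opposite way to Ifi27, at -0.43 ± 0.16 log2 units (SE, adjusted p = 0.18). The interferon regulator Irf7 fell with lactation at both gravities (-3.63 against -2.96 log2 units). Numbers were 1 of 13 for glucocorticoid response, 1 of 12 for myoepithelium, 1 of 4 for erythrocytes, and 0 for milk proteins (5 measured), hormone sensing and Wnt (14), lymphocytes (13), plasma cells (5), adipocytes (15), skeletal muscle (17) and hepatocytes (16). Lymphocyte markers had a median interaction of -0.85 and hepatocyte markers one of -0.50, with values from -1.71 to 0.18 and from -1.30 to 0.13. Rspo1, an R-spondin in the hormone sensing and Wnt list, dropped by 6.13 log2 units with lactation at standard gravity and by 5.44 in hypergravity.

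The largest interactions outside the lists, by class, were these. Card14 (chr10:105064941-105100132), a scaffold for NF-kB signalling in epithelia, had the largest measured upward value of all genes. Card14 had log2 levels of 9.42, 10.81, 10.43, 10.29 and 7.3 in pregnancy and 3.39, 3.34, 6.15, 3.27 and 4.05 in lactation at standard gravity, and of 10.83, 9.77, 8.23, 10.66 and 10.54 in pregnancy and 11.17, 10.39, 9.81 and 10.92 in lactation in hypergravity. The lactating arrays at standard gravity ran from 3.27 to 6.15, and the lowest array of the other 3 groups read 7.3. The low values of 4.05 or less lie below the array medians, so the size and rank of this difference are approximate. Its stage effect was -5.61 log2 units at standard gravity (adjusted p = 8.6e-06) and 0.57 in hypergravity (adjusted p = 0.59), an interaction of 6.17 ± 0.97 log2 units (SE, adjusted p = 0.0012), 95% interval 4.14 to 8.21. The chitinase-like protein Chi3l1 (4.34 ± 0.56, adjusted p = 0.00022) and the phosphodiesterase Gdpd1 (3.98 ± 0.53, adjusted p = 0.00025) had lost falls of -3.58 and -3.83. Lost rises included those of C2cd4b (-3.84 ± 0.95, adjusted p = 0.026) and the protocadherin Pcdh17 (-3.69 ± 0.66, adjusted p = 0.0029).

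Reversed genes from lower to higher included the T cell inhibitory ligand Vtcn1 (-3.05 against 1.56 log2 units, with an interaction of 4.6 ± 0.65, adjusted p = 5e-04) and the keratin Krt23 (-2.08 against 1.93, with an interaction of 4.01 ± 0.56, adjusted p = 0.00046). Vtcn1 had log2 levels of 6.07, 6.18, 7.06, 6.23 and 5.51 in pregnancy and 2.88, 2.82, 4.72, 2.75 and 2.64 in lactation at standard gravity, and of 6.69, 5.64, 5.14, 6.58 and 6.48 in pregnancy and 8.58, 7.67, 6.38 and 8.03 in lactation in hypergravity. Levels in lactation at standard gravity reached 4.72 and those in hypergravity began at 6.38. A new rise was found for the chemoattractant Gpr15lg (4.96 ± 1.36, adjusted p = 0.048), whose pregnant array M48S read 8.06 against 3.03 to 3.86 on the other 4. New falls were led by the lysine-degrading enzyme Aass (-3.54 ± 0.64, adjusted p = 0.0031) and the muscarinic receptor Chrm4. Chrm4 had log2 levels of 5.36, 5.28, 6.1, 6.04 and 5.27 in pregnancy and 5.54, 6.12, 6.52, 5.34 and 5.25 in lactation at standard gravity, and of 6.85, 6.94, 4.57, 6.25 and 7.44 in pregnancy and 3.18, 3.19, 3.01 and 2.94 in lactation in hypergravity. Chrm4 had an interaction of -3.48 ± 0.58 log2 units (SE, adjusted p = 0.0018), and its lactating groups did not overlap. Mlana, a melanocyte antigen, was weakened (-5.71 against -2.15, with an interaction of 3.56 ± 0.65, adjusted p = 0.0035). The substance P receptor Tacr1 (0.54 against 3.04, with an interaction of 2.5 ± 0.25, adjusted p = 3.8e-05) and the secreted carbonic anhydrase Car6 (1.72 against 3.98, with an interaction of 2.26 ± 0.6, adjusted p = 0.039) were strengthened. Card14, Chi3l1, Vtcn1, Krt23, Gpr15lg, Mlana, Tacr1 and Car6 were no longer called with M210H kept. C2cd4b and Car6 were not called without the 4 arrays with muscle or hepatocyte markers. Gpr15lg, Aass and Mlana were not called without all 7 marked arrays. C2cd4b was not called without M52S, M201S, M203H or M206H. Gpr15lg was not called without any 1 of 15 arrays. Car6 was not called without any 1 of 12 arrays.

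The same contrast was formed in liver (20 arrays) and adipose tissue (19 arrays, without A210H) of the same rats. RNA was isolated from adipose tissue with another kit than from the other tissues, which cannot be told apart from the tissue. Skeletal muscle markers (17 genes) had a median interaction of 3.61 log2 units in adipose tissue, none called, against 0.4 in mammary gland and 0.23 in liver. The part of muscle in the adipose values was not tested. Differences between tissues come from a joint fit that pools the spread of all tissues. The contrast was called at 27 genes in liver (0.190%) and at 0 in adipose tissue (0%). In adipose tissue 496 of 14217 genes had an unadjusted p under 0.05 in limma, against 2610 in mammary gland. The mammary interaction differed from that of liver at 397 genes (2.79%) and from that of adipose tissue at 485 (3.41%). With the rat as a block these counts were 535 and 585. Of the 801 genes, 434 (54.2%) had the same sign in liver and 311 (38.8%) in adipose tissue, against 51.4% and 46% of all genes. The 27 liver genes and the 801 mammary genes shared 4, which is 14.8% of the former and 0.499% of the latter; they are named after their values were seen. The urea cycle enzyme Ass1 was at -3.08 log2 units in mammary gland and 1.98 in liver, and the transaminase Got1 at -1.79 and 2.1, with opposite signs in both cases. Psat1 of serine synthesis was at -1.33 and -2.22, and the adaptor Stap2 at 1.95 and 1.48.

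Over all genes the mammary interaction differed from that of liver at 2.79% and from that of adipose tissue at 3.41%. Among 29 mitosis genes it differed from liver at 23 and from adipose tissue at 21. Among 26 replication genes it differed at 12 and 10. The liver medians of these 2 lists were 0.46 and 0.56. For cholesterol synthesis the median was -1.04 in mammary gland, -0.96 in liver and 0.13 in adipose tissue; the difference from liver was called at 0 of 19 genes and that from adipose tissue at 3. Fdps was at -2.03 in mammary gland and -1.61 in liver (adjusted p = 0.093 in liver), and Idi1 at -2.44 and -2.16. Fatty acid synthesis had medians of -0.63, -0.68 and 0.48 in the 3 tissues, with 0 differences from liver and 5 from adipose tissue. For involution the medians were 0.88, 0 and -0.02, with 6 and 5 of 20 genes differing, and for host defence 1.43, 0.15 and -0.04, with 4 and 5 of 15. A difference that was not called does not show that the tissues were alike.

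**Figure D5:**
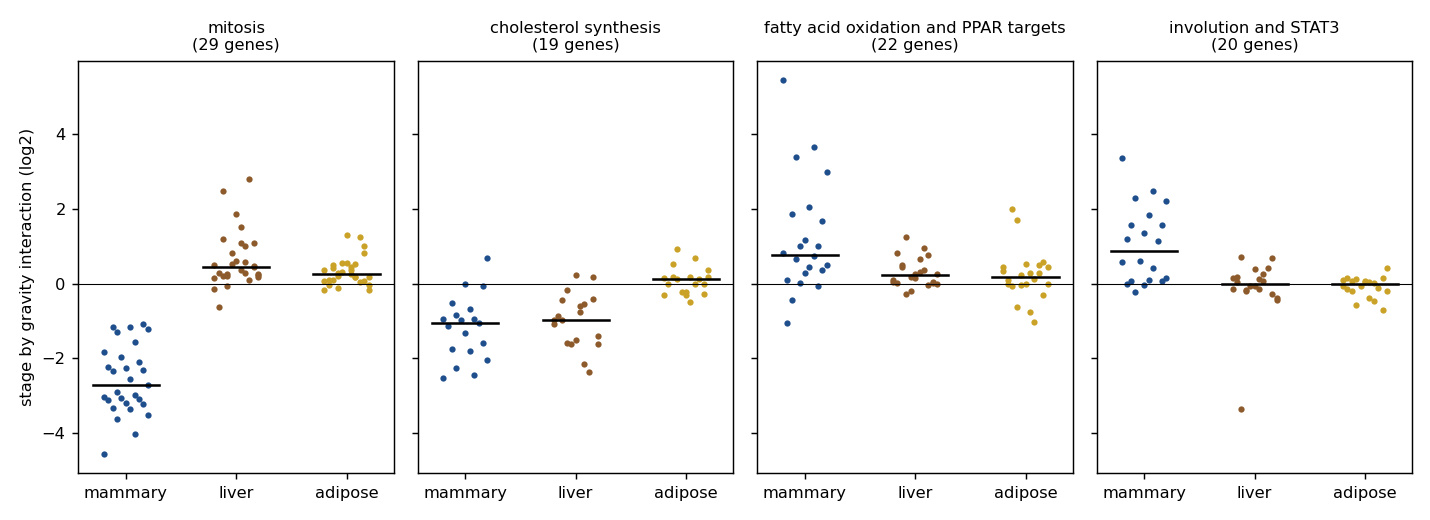
Stage by gravity interaction in log2 units (y axis) of every measured gene of 4 lists in mammary gland, liver and adipose tissue (x axis); points are genes and bars are medians. Mitosis genes are all below 0 in mammary gland alone, while cholesterol genes have medians of -1.04 in mammary gland and -0.96 in liver.

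How far the 4 lactating hypergravity arrays differed among themselves is seen from class means by array. Over the 66 genes reversed from higher to lower, mean log2 levels were 5.22, 5.4, 5.61 and 5.75 on M203H, M206H, M212H and M217H, 7.6, 8.65, 7.54, 7.82 and 7.56 on the lactating arrays at standard gravity, and 6.33 to 6.89 on the 10 pregnant arrays. The value of 8.65 belonged to M202S. Over the 62 genes reversed from lower to higher they were 8.78, 8.71, 8.5 and 8.62 in lactation in hypergravity and 6.58, 6.67, 7.01, 6.63 and 6.77 at standard gravity, against 7.28 to 7.96 in pregnancy. Over the 207 lost falls, lactating hypergravity arrays read 7.91, 7.92, 7.72 and 7.85, inside the pregnant range of 7.47 to 8.16, and lactating arrays at standard gravity 6.32, 6.43, 6.57, 6.41 and 6.54. Over the 177 lost rises they read 5.7, 5.81, 5.99 and 5.99 against 7.52, 7.8, 7.44, 7.62 and 7.38. These means were set by the choice of genes and show only how the arrays spread. M203H was farthest from standard gravity at 302 of the 801 genes (37.7%), M217H at 185 (23.1%), M206H at 173 (21.6%) and M212H at 141 (17.6%). M212H is the array with muscle markers.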

How the data were processed

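Values are log2 RMA signals deposited by the authors as 1 table of 31042 probe sets; the method is named per the submitters' processing notes, and no version is given there. Probe sets with 1 symbol numbered 20826 (20758 matched RefSeq GRCr8), with several 436 and with none 9780. Each of 14217 genes was represented by the brightest of its single-symbol probe sets, averaged across the 19 mammary arrays. Group means were fitted to the 19 arrays in R 4.3.3 by limma 3.58.1, with moderated two-sided tests and Benjamini-Hochberg adjustment over all probe sets, and the interaction was taken as a contrast; a joint fit of 58 arrays gave the differences between tissues. The code was tested on simulated data. Classes, lists and members were chosen with earlier results of these data known. Named are up to 4 called genes with the largest absolute interaction in each class and direction (2 for weakened and strengthened), up to 4 called members of each list or the 2 with the smallest p where none was called, and a fixed set that includes Csn2, Wap, Lalba, Prlr, Elf5, Stat5a and Scd; Spc25 and Cdk1 were added for their promoters, and 1 gene that the rule picked is not reported here. Replicates are separate rats by their codes. Deviations of samples from the same rat correlated with a median r of 0.13 between mammary gland and liver and 0.12 with adipose tissue, over 0.1 in 13 of 19 rats, against -0.03 and -0.04 between other rats. Precision is limited by the number of arrays. Alternatives covered arrays left out or kept, array weights, normalization, filters, probe set summaries and thresholds.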

Additional observations from a re-analysis of the deposited data

Results flagged for a closer look

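In groups of 4 or 5 arrays, single arrays stood far from the rest of their group in 24 of 324 groups examined over 81 genes (7.41%), where chance gives about 1 in 20. Values are log2 levels, with the range of the other arrays of the group. Array M214S read 6.15 for Card14 (others 3.27 to 4.05), 6.6 for Slc4a4 (others 4.19 to 4.81), 4.72 for Vtcn1 (others 2.64 to 2.88) and 8.22 for Slc3a2 (others 7.94 to 8.02). Array M48S read 8.06 for Gpr15lg (others 3.03 to 3.86). Array M60H read 11.62 for Mt2A (others 12.42 to 12.61). Array M216S read 3.72 for Wfdc18 (others 2.96 to 3.12). Array M202S read 9.46 for Cenpu (others 7.51 to 8.06), 9.56 for Pclaf (others 7.83 to 8.13), 9.05 for Mcm5 (others 6.73 to 6.97), 9.21 for Cdt1 (others 7.22 to 7.46) and 4.65 for Slc27a3 (others 5.99 to 6.32). Array M57S read 8.32 for Mlana (others 9.19 to 9.33) and 4.3 for S100a9 (others 5.69 to 6.07). Array M56H read 8.47 for Acaa2 (others 10.09 to 10.54), 9.75 for Acaca (others 10.62 to 10.88) and 6.69 for Idi1 (others 4.79 to 5.14). Array M219S read 3.62 for Mmp9 (others 2.64 to 2.9). Array M217H read 8.49 for Cldn4 (others 7.94 to 8.01). Array M212H read 9.19 for Car6 (others 7.3 to 7.57). Array M203H read 4.51 for Mvd (others 3.98 to 3.99) and 10.2 for Mrc1 (others 10.87 to 10.99). Array M201S read 8.12 for Krt8 (others 8.58 to 8.6). Array M44S read 10.63 for Krt8 (others 9.99 to 10.15). Array M56H carried hepatocyte markers, M57S a lower level of them and M212H muscle markers; their part in these values was not tested. By the interaction term, the stage effect differed between the gravities at 801 genes, and the interaction differed between mammary gland and liver at 397 and between mammary gland and adipose tissue at 485.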

How the results depend on the processing

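Counts are of called genes; the cause of each shift was not tested. With M210H kept, the interaction was called at 519 genes and 788 probe sets, with 135 new, 25 weakened and 11 strengthened. Without the 4 arrays with muscle or hepatocyte markers there were 245 lost, 21 weakened and 63 strengthened genes, and 0 with a hypergravity effect in pregnancy. Without 7 arrays, an alternative chosen after seeing the data, there were 420 genes and 686 probe sets, with 164 lost, 65 reversed, 9 weakened and 34 strengthened, and 2 in pregnancy. Array weights gave 1238 genes and 1996 probe sets, 3107 genes for hypergravity in lactation, and 336 new, 119 weakened and 84 strengthened. The hypergravity count in pregnancy, 1 in limma, was 0 with a robust fit, with the brighter probe sets alone and with only the groups compared, 2 after quantile normalization and 5 with the mean of a gene's probe sets. With only the groups compared, the stage effect in hypergravity was called at 3280 genes. Stage effects called at 0.01 left 48 reversed and 26 weakened genes, and at 0.1 there were 194 reversed. With M210H and A210H kept, 252 genes differed between mammary gland and liver. With the rat as replicate block, the pairing described under processing, 535 differed from liver and 585 from adipose tissue. Leaving out single arrays gave 598 to 988 interaction genes (lowest without M206H, highest without M56H), 925 to 1600 probe sets, 283 to 462 lost, 94 to 151 reversed, 137 to 295 new (lowest without M203H), 30 to 71 weakened and 11 to 89 strengthened. The ranges were 4971 to 6152 for stage at standard gravity, 3958 to 6012 for stage in hypergravity, 1269 to 2075 for hypergravity in lactation, 0 to 7 in pregnancy and 8 to 72 for the liver interaction. Of the 81 called genes picked by the naming rule, 57 were called with M210H kept, 69 without the 4 arrays and 51 without the 7, with 0 reversed in sign.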

Other observations

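Array A210H, labelled adipose tissue of the rat whose mammary array was left out, entered no group. Its Csn2 log2 level was 13.03. Over the 801 interaction genes it lay nearer the mean of the lactating hypergravity mammary arrays than that of the lactating arrays at standard gravity at 438 (54.7%), at 220 of 384 lost genes (57.3%), 75 of 128 reversed genes (58.6%) and 100 of 207 new genes (48.3%). Mt2A read 11.79 on it, against group means of 12.47 in hypergravity and 7.91 at standard gravity, and Cenpu 4.77 against 3.97 and 8.18. Slc4a4 read 7.32 against 9.47 and 4.99, Pdk4 7.45 against 10.15 and 5.28, and Card14 7.42 against 10.57 and 4.04. Atp2b2 read 9.24 against 5.75 and 11.37.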
